A study of Homo sapiens with 2 samples.

Results

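PML, SP100, SP110, SP140 and SP140L are 5 genes whose products belong to, or are close relatives of the proteins of, the nuclear body named after PML. They were examined in a list of binding sites of IRF1, an interferon-responsive transcription factor, made from NB4, a human cell line established from acute promyelocytic leukemia that carries the fusion of PML with RARA. A site was taken if the authors gave one of the 5 as its nearest gene at any distance, if it lay within 50 kb of the chromosome 2 cluster that holds SP110, SP140, SP140L and SP100, or if it lay inside the span of PML. This rule found 5 of the 1986 summits in the list (0.252%), and no filter on low scores was applied. The rule uses neither the score nor the sequence. The authors' nearest gene is the gene of the nearest start site, so the rule is not independent of the distances to start sites given below, which are a description.

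The study profiled IRF1 by chromatin immunoprecipitation and sequencing in NB4 cells given all-trans retinoic acid for 4 hours and in control cells given the solvent DMSO, with 1 library per group. The list analysed here is named for the retinoic acid library. The control library's values are not used here, so nothing below measures a gain or loss under treatment, and no spread between replicates can be given. A summit is the single base at which the authors placed the top of a peak. Its peak score is the authors' own value of unstated scale, used here to rank summits within this list, in which it ran from 8.28 to 321 with a median of 25.2. The background used for the calling is not given in the sources used here, and a missing summit does not show missing binding.

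PML nuclear bodies are protein assemblies in the nucleus that PML, itself a target of the small modifier SUMO, builds around itself. They take up many partner proteins, take part in antiviral defence and grow in number and size when cells receive interferon. The fusion of PML with the retinoic acid receptor gene RARA breaks them up in acute promyelocytic leukemia, and retinoic acid lets them form again. SP100 was found as an autoantigen in these bodies, and SP110, SP140 and SP140L are its relatives, several of which carry a DNA-binding SAND domain and domains that read histone marks.

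Of the 5 genes, 4 had a summit assigned to them within 10 kb of a transcription start site, and all 4 had one within 1 kb. The same held for 3.36% of 19974 protein-coding genes at 10 kb and for 2.03% at 1 kb. The 5 genes were chosen with earlier results of these data known, so these shares are a description, not a test. SP140 was the exception and was the nearest gene of no summit. By the authors' distances, 3 of the 5 summits lay within 100 bp of a start site, as did 10.9% of all summits. Within 1 kb were 4 of the 5, against 27.1% of all summits. These 4 were classed as promoter and the fifth as intron.

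The scores spread widely over the list. SP110 had the highest, 91.3, which exceeded 90.1% of all summits. The promoter summit of PML followed with 77.2, above 87.2% of summits, and that of SP140L had 50.1, above 78.6%. The second PML summit had 36.2, above 67.6%. SP100 was the low one, with 16.3, above 18.8% of summits, and its score was below the lower quartile of the list, 17.7. The median of the 5 was 50.1, beside 25.2 over the whole list. The 539 summits within 1 kb of a start site had a median of 27.8. Among them SP110 was above 84.8%, the promoter summit of PML above 82.0%, SP140L above 73.5% and SP100 above 18.9%. The second PML summit was not one of the 539.

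**Figure D1:**
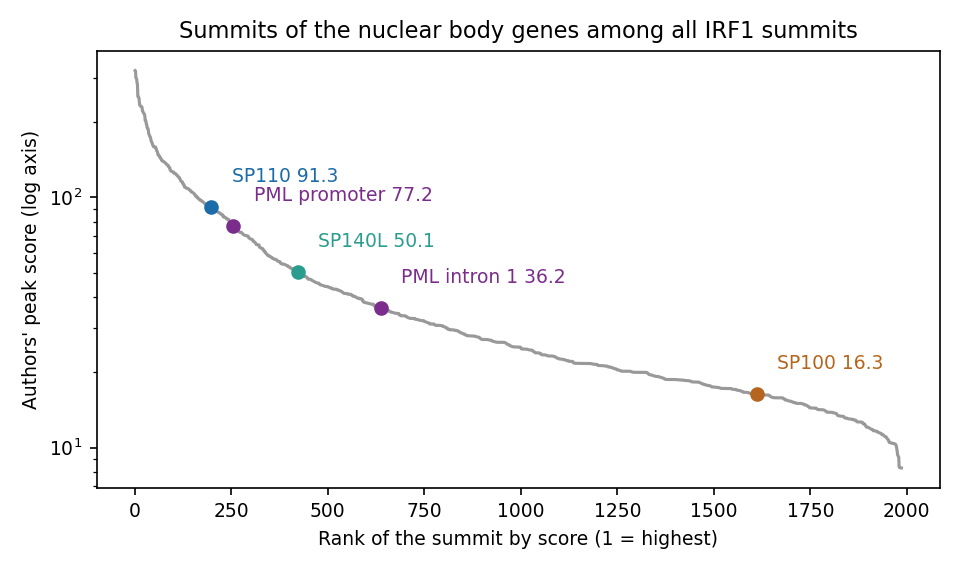
Peak score (log axis) of all 1986 IRF1 summits (grey line) against rank, with the 5 summits of the nuclear body genes as coloured points. SP110 (91.3), both PML summits (77.2 and 36.2) and SP140L (50.1) lie in the upper part of the list, and SP100 (16.3) lies in its lower part.

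PML, the scaffold of the body, had 2 summits, which 0.706% of protein-coding genes had as nearest gene at that number or more. The stronger lay on chromosome 15 at position 73994798 of hg38, 125 bp downstream of the start site the authors used and 82 bp inside the RefSeq span of the gene (73994716 to 74047827). That promoter is shared with a neighbour: the span of STOML1, which encodes a stomatin-like membrane protein, ended 94 bp before that of PML. The authors' promoter annotation names a STOML1 transcript, while their nearest gene is PML. The summit was 176 bp from the STOML1 span, so it can be read as a summit of either gene. The weaker summit lay 2421 bp farther on, at position 73997219, in intron 1 of 7 of a PML transcript and 2546 bp from the start site. It was the lower of the pair, 36.2 beside 77.2.

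The intronic PML summit was the only one of the 5 in an annotated repeat. The repeat was a MER51A element, a long terminal repeat left by an endogenous retrovirus of the ERV1 class. The list held 18 summits in MER51A, with scores from 11.7 to 133 and a median of 22.7, and the one in PML ranked sixth together with another of the same score. Only 5 of the 18 lay within 10 kb of a start site, the one in PML among them. No other summit lay in or near PML: the next on either side were 1118.2 kb below the gene and 1151.0 kb above it. The list does not separate the normal PML allele from the fused one, and the start of the fusion gene is that of PML.

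**Figure D2:**
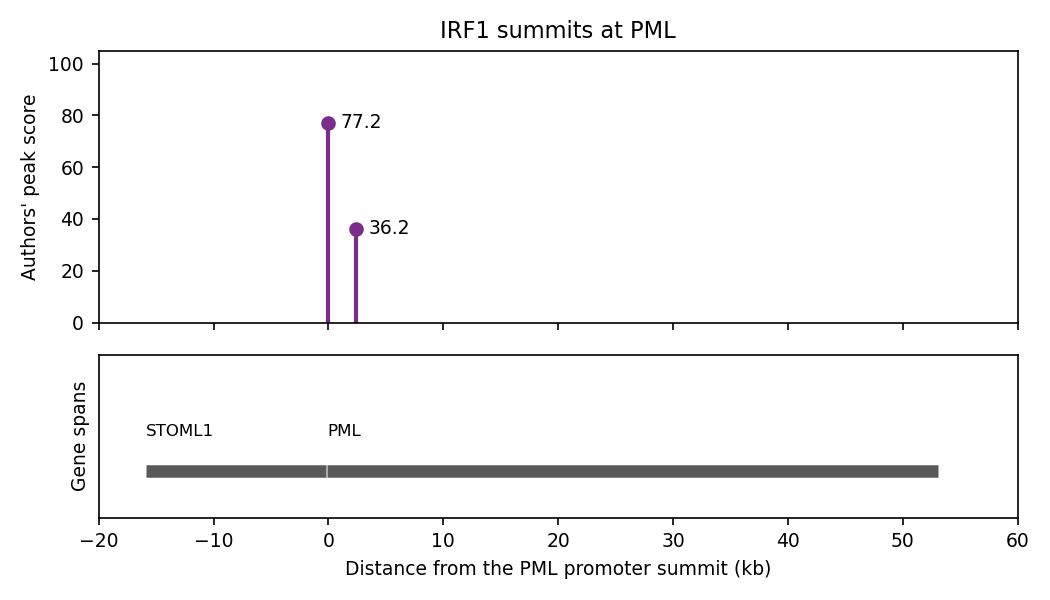
Peak scores of the 2 IRF1 summits at PML (stems, upper panel) above the RefSeq spans of STOML1 and PML (bars, lower panel), against distance from the promoter summit in kb. The promoter summit (77.2) stands where the spans of both genes meet, and the intronic one (36.2) is 2.42 kb farther into PML.

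The SP genes lie side by side over 380.4 kb of chromosome 2 (230165186 to 230545606). Together with 50 kb on each side, a window of 480.4 kb, they held 3 summits, and all 3 stood at a start site of one of the SP genes. Among 6295 consecutive windows of that length over the chromosomes in the list, 1.48% held 3 or more summits, and 0.349% held 3 or more within 1 kb of a start site. Those windows were laid end to end without regard to genes. The SP window was drawn around genes chosen with earlier results of these data known, so the shares are a description. The summits were spaced by 107136 bp from SP110 to SP140L and by 88929 bp from SP140L to SP100. Around the cluster the list was empty over long stretches, with the next summits 984.3 kb below it, near PID1, and 279.1 kb above it, near ITM2C. The other annotated genes in the window, non-coding RNAs and pseudogenes such as HMGB1P3, were the nearest gene of none.

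**Figure D3:**
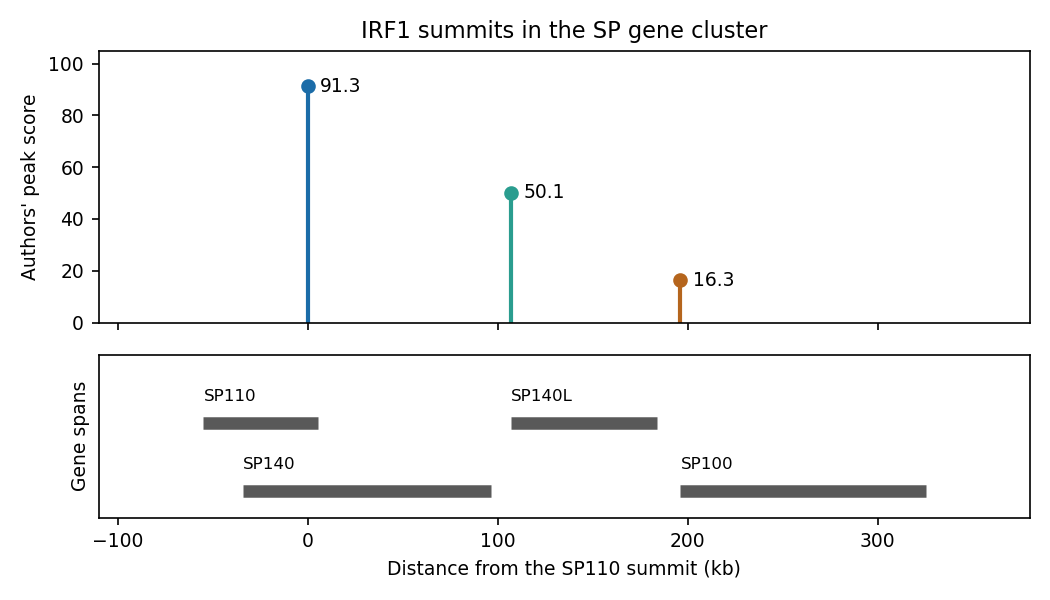
Peak scores of the 3 IRF1 summits in the chromosome 2 cluster (stems, upper panel) above the RefSeq spans of SP110, SP140, SP140L and SP100 (bars, lower panel), against distance from the SP110 summit in kb. The scores are 91.3 at SP110, 50.1 at SP140L and 16.3 at SP100, and none stands at the SP140 start listed among the promoter sequences. The spans of SP140 and SP110 overlap.

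SP110 encodes an interferon-induced body component whose loss causes an inherited immunodeficiency with liver vein occlusion. Its summit lay at position 230220052, 60 bp downstream of the start site used by the authors. RefSeq promoter sequences (GRCh38.p14) list 2 starts for this gene, which is read from the minus strand, 5652 bp apart. The summit stood 68 bp before the downstream start, at 230219984, and 5584 bp from the upstream start, at 230225636. The position also lies inside the span that RefSeq gives SP140 (230186151 to 230316571), which overlaps SP110.

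SP140 encodes a chromatin reader found mainly in immune cells. The RefSeq span of SP140 begins farther out, at 230186151, but the one start listed for it among the promoter sequences, at 230225736, faces away from the upstream start of SP110, 100 bp from it. The nearest summit to this start was that of SP110, 5684 bp away. Neither gene had a summit at this pair of facing-away starts, and the SP110 summit stood at that gene's downstream start. Other starts of SP140 were not analysed here.

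SP140L, a less studied relative of SP140 and SP100, had its summit at position 230327188, 8 bp downstream of the start site used by the authors and 5 bp before the RefSeq start (230327193). SP100, a constituent of the bodies that restricts incoming viral genomes, had its summit at 230416117, 39 bp upstream of the start site used by the authors. By RefSeq it stood 84 bp before the upstream one of 2 starts (230416201) and 639 bp before the other.

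RefSeq promoter windows, each of 250 bases before a start and 50 after it, were found for SP110, SP140, SP140L and SP100, 6 windows in all. PML was not matched. The windows of SP110, SP140 and SP140L shared a run of 16 bases, which is the longest common to their 4 windows on either strand. Because the upstream SP110 window and the SP140 window overlap by 199 bases, these 4 windows hold it at 3 separate places. The run is shown in capitals with its neighbouring bases at those places and, in SP100, at its closest match, since it is what the starts have in common and where the listed SP140 start, without a summit, does not differ.
SP110 downstream start, chr2:230220013-230220042, minus strand: cgaaaacTTTCACTTTTCTTTTCtcggaag
SP140L, chr2:230327099-230327128, plus strand: taaatacTTTCACTTTTCTTTTCcccattt
SP100 upstream start, chr2:230416130-230416159, plus strand: taaatacTTTCACTTCTCTTTTCcccattt
SP140 and SP110 upstream start, chr2:230225719-230225748, plus strand: taggcaaTTTCACTTTTCTTTTCctctttg

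The exact run was in 4 of 35116 promoter windows (0.0114%), all 4 of them windows of SP110, SP140 or SP140L. The SP100 window held it with 1 substitution, T9C, counted from 1 at the 5′ end of the run as printed. With at most 1 change, 13 windows held the run (0.0370%). The run ended 17 bp from the SP110 summit, 67 bp from the SP140L summit and, in its changed form, 20 bp from the SP100 summit. The copy at the listed SP140 start was 5674 bp from the nearest summit. Sequence identity over these 16 bases therefore did not go with a summit at all 3 places. The run was picked because the members share it, so its rarity is a description of these windows, not a test.

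**Figure D4:**
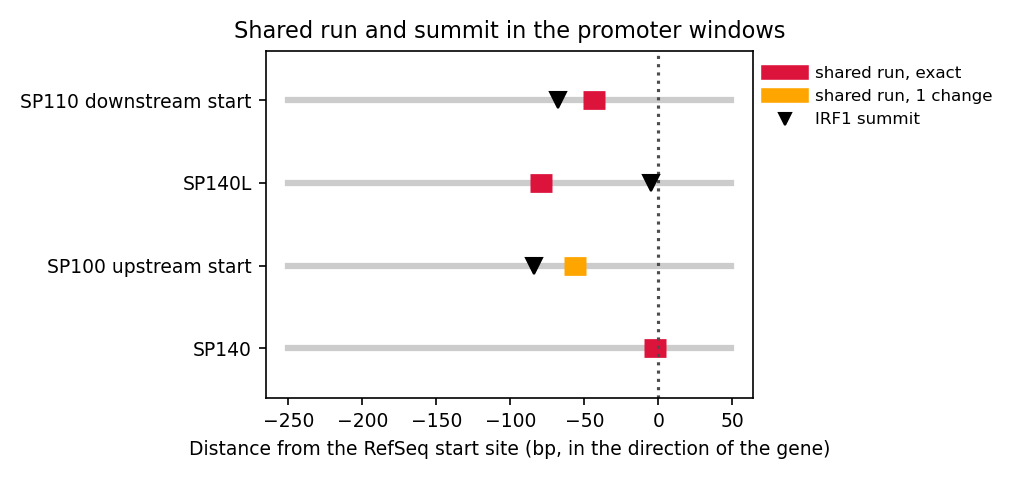
Position of the shared run of 16 bases (red, exact; orange, with 1 change) and of the IRF1 summit (black triangle) in 4 promoter windows of 300 bases, in bp from the RefSeq start site (dotted line). The summits stand within 67 bp of the run in SP110, SP140L and SP100, and the SP140 window holds the run at its start but no summit.

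On the strand opposite to the one printed, the run holds repeats of the letters GAAA, the form in which IRF proteins are known to bind DNA. In the run these repeats are not spaced by exactly 2 bases. The motif searched first, GAAA followed by any 2 bases and GAAA, on both strands, was in none of the 6 windows of the SP genes. It was in 3.57% of all promoter windows, and in 38.7% of the 302 windows (0.860% of all) that held an IRF1 summit. With at most 1 mismatch in its 8 fixed letters it was in 4 of the 6 windows, those with the exact run. This form was in 33.0% of all windows and in 68.9% of those with a summit. Of the 4 windows, those of the SP110 downstream start and SP140L held a summit. Those of SP140 and the SP110 upstream start, which overlap, held none. The window of the SP100 upstream start held a summit without this form. The shorter core AANNGAAA, which lies within the longer motif, was in 5 of the 6, in 22.8% of all windows and in 65.2% of those with a summit. The exact run holds 2 copies of the core, on the strand opposite to the one printed, and the only copies of these windows were in the run. The SP100 window held 1 copy, since its substitution falls in the other. A motif that is absent says only that these letters are not in this window.

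SP140L and SP100 also share sequence well beyond the run. Their windows aligned over 270 bases with 92.6% identity (250 identical bases, 20 mismatches and 9 gap bases), and the longest identical stretch was 48 bases. The other pairs of separate windows aligned over at most 71 bases. The stretches before the starts used by the authors are printed for this pair, with the run in capitals, to show how alike 2 starts with different scores were.
SP140L, chr2:230326943-230327179, plus strand: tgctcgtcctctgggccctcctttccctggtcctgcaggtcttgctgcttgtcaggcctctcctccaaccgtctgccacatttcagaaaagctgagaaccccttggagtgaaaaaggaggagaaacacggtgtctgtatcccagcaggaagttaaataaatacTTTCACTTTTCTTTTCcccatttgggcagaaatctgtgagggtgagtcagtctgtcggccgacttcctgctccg
SP100, chr2:230415951-230416155, plus strand: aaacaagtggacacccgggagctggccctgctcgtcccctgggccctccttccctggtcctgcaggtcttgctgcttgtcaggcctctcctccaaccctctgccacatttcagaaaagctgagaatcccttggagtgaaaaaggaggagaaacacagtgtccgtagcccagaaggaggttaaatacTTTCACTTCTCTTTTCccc

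The score was 50.1 at SP140L and 16.3 at SP100. The treatment of reads that fit several places equally well is not given in the sources used here. The share of such reads at this pair and its part in their scores were not tested.

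Other genes of the pathway were read from lists, which were also chosen with earlier results of these data known. Of 38 listed genes, 3 had a summit assigned within 10 kb (7.89%, beside the 3.36% of all protein-coding genes). Among 16 partners of the nuclear body this was 1 gene, ISG20, an interferon-induced exonuclease found in the bodies. Its summit lay in exon 1 of 4, in the 5′ UTR, 255 bp from the start, with a score of 18.7. Among 18 genes of the SUMO pathway these were SENP3, a protease that removes SUMO, with a summit 200 bp before its start (17.1), and RNF111, a ubiquitin ligase that recognises SUMO chains. The RNF111 summit (16.9) lay 5677 bp before the start in a DNA transposon copy, Charlie13a. All 3 scores were below the median of the list. None of the 4 other SAND domain genes, AIRE, DEAF1, GMEB1 and GMEB2, was the nearest gene of a summit. MORC3, an ATPase of the bodies, was the nearest gene of a summit at any distance, 59492 bp before its start, in exon 24 of 37 of DOP1B (26.4).

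The gene of DAXX, the histone chaperone that PML bodies gather, was the nearest gene of no summit. A summit with a score of 221 lay within 10 kb of its span, at position 33314084 of chromosome 6, but the authors' nearest gene there was TAPBP, the peptide loading factor, 303 bp from its start. CABIN1, a subunit of the HIRA histone chaperone complex, held a summit inside its span (75.0) whose nearest start, 24968 bp away, was that of SUSD2. The summits within 10 kb of HIRA (17.2) and AIRE (12.7) stood at the starts of MRPL40 and PFKL.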

How the data were processed

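The authors deposited 1 list of IRF1 summits with a peak score and an annotation per summit. The annotation was made by annotatePeaks.pl of HOMER on hg38, per the file headers. Bowtie2 2.2.9 and MACS 1.4.2 are named in the submitters' processing notes. Scale and threshold of the score are not stated there, and the depth of reads at each summit is unknown.

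Summits were taken by the authors' nearest gene and by position, and Entrez identifiers were looked up in a RefSeq gene table of GRCh38.p14 (1977 of 1986 summits matched). RefSeq promoter sequences of the same build (35116 windows of 27305 genes) were searched on both strands, and windows were aligned with Biopython 1.88 (local, match 1, mismatch -1, gap opening -5, gap extension -1). The motif search found planted motifs in simulated windows. With 1 library per group no test was made and all values are descriptions. Named are the 5 members, genes in the annotation of their summits or in the chromosome 2 window, and listed pathway genes with a summit. The members and lists were chosen with earlier results of these data known, and the shared run, the core AANNGAAA and the alignment after their sequences were seen. The alternatives were a stricter score, merged summits, other distances and other motif forms. Computations used Python 3.11.15, pandas 2.3.3, numpy 2.4.6 and matplotlib 3.10.9.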

Additional observations from a re-analysis of the deposited data

How the results depend on the processing

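The 5 summits were 4 with scores at or above the list's median, where SP100 dropped out, and 5 with summits under 200 bp apart merged and with 10 kb or 100 kb around the cluster. Merging and these widths could not change the count. No members lay that close, the cluster summits also enter by nearest gene, and the next summit was 279.1 kb from the cluster. The members with a summit stayed at 4 within 1 kb and at any distance and were 3 with the stricter score. They were 5 with gene spans extended by 10 kb, a rule that is looser for every gene. SP140 entered there through the SP110 summit inside its span. The median member score of 50.1 was the same under its 2 alternatives, summits within 10 kb of a start and merged summits. Neither could change it, since both keep the same 5 summits. The pathway genes with a summit numbered 3 within 10 kb, 2 within 1 kb and 4 at any distance. They were 0 with the stricter score, since all 3 scores lay below the median, and 7 with extended spans, which admit summits of neighbouring genes. For members and pathway genes alike, the share of all protein-coding genes was taken only at 10 kb (3.36%) and 1 kb (2.03%). The counts at any distance, with the stricter score or with extended spans have no such share beside them. SP genes with a motif in the promoter were 0 for the motif of GAAA repeats 2 bases apart and for its longer form ending in CT, 3 with at most 1 mismatch and 4 for the core AANNGAAA, an alternative chosen after seeing the data and looser by construction. Leaving out a replicate was not possible with single libraries. No paired analysis was possible because the deposited list comes from a single library. Scores carry no stated scale or read depth, so differences between summits have no error.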

Other observations

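The run shared by the SP promoters was also looked for in the promoter windows of other genes, after it had been seen. With up to 2 changes it was in 76 windows of other genes, of which 10 held an IRF1 summit (13.2%), beside 0.860% of all windows. Some of these windows overlap, among them 3 of the 10, those of B2M and PATL2. The 0.860% covers windows with and without IRF motif letters. Of the 1255 windows with GAAA repeats 2 bases apart, 117 held a summit. Of the 8018 with the core AANNGAAA, 197 did. Whether the whole run goes with a summit more often than such shorter motifs was not tested. With at most 1 change, 8 of the 13 windows belonged to other genes, and 3 of those 8 held a summit: BTN3A3, a butyrophilin, ETV7-AS1, an antisense RNA of ETV7, and C2CD2. RELA, a subunit of the factor NF-kappaB, held the run with 1 change and no summit. Among windows with 2 changes that held a summit were those of IFIT3 and MX1, interferon-induced antiviral genes, BTN3A2, and B2M, the light chain of MHC class I. The others with a summit were those of PATL2 and LINC02000. Most windows with 2 changes held no summit, among them those of GBP6, CD38, IFNA7 and GZMA.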
